A study of Homo sapiens with 6 samples.

Results

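The genes described here are 30 genes of cholesterol synthesis, its control by sterols, and the movement of cholesterol out of lysosomes and out of the cell. They were chosen by name from the 28265 gene rows of the count tables, by their place in the pathway and with earlier results of these data known, and all 30 were found. Their transcripts were measured by sequencing polyA RNA from MDA-MB-231, a widely used triple-negative line of human breast cancer, and from its glutamine-independent derivative MDA-MB-231GlnIND, with 3 libraries of each. Parental cells grew in RPMI with glutamine and fetal bovine serum, and GlnIND cells had spent over 6 weeks in RPMI without glutamine and with dialysed serum. The derivation of the cells, the glutamine supply and the serum therefore differ together and cannot be told apart. The labels do not say whether GlnIND is a single clone or whether each library had a culture of its own. The p-values therefore cover only library-to-library spread, which may be technical. In bulk RNA, fewer cells with a transcript and less of it per cell cannot be told apart.

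Cells build cholesterol from acetyl-CoA. The mevalonate steps make farnesyl diphosphate, which also feeds protein prenylation, and the sterol steps turn it through squalene and lanosterol into cholesterol. The transcription factor SREBP2 (gene SREBF2) activates nearly all of these enzymes when sterols in the endoplasmic reticulum are scarce. Its escort SCAP carries it to the Golgi for cleavage, and the INSIG proteins hold the complex back when sterols are plentiful. Cholesterol taken up with lipoproteins leaves the lysosome through NPC2 and NPC1, and surplus is esterified by SOAT1 or exported by ABCA1 and ABCG1, which LXR receptors switch on when oxysterols accumulate.

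Total counts ranged from 18256219 to 24594248 per library. The transcript of VIM, an intermediate filament of mesenchymal cells, was at 3818 to 6143 CPM over the 6 libraries (CPM are counts scaled to a common library size with TMM composition factors), CD44 and ITGB1 were also abundant, and the receptor genes ESR1 and PGR were at most at 0.307 CPM. The blood and liver genes PTPRC, CD3E and ALB were at most at 0.248 CPM, and the endothelial gene PECAM1 was at 2.34 to 4.71 CPM. Of genes under 20 counts 60.6% to 65.0% had an even count, against 49.8% to 51.2% of genes with high counts. In case both mates of a pair were counted, which was not tested, the detection floor was set at 6 counts, or 0.230 to 0.343 CPM. Among the cholesterol genes the first parental library lay farthest from the other parental libraries at 15 of 29 genes. The third GlnIND library lay farthest from the other GlnIND libraries at 17 of 29 genes. The median coefficient of variation was 7.49% in parental and 5.34% in GlnIND libraries.

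The comparison of GlnIND with parental cells asks which transcripts accompany long-term growth without glutamine. Most sterol-forming enzymes and SREBF2 were lower in GlnIND cells, INSIG1 fell to 42.8 from 115 CPM, and the lysosomal exporter NPC1 rose to 247 from 89.5 CPM. Of the 30 genes 29 passed the filter on low counts. Among these 16 fell (55.2%) and 4 rose (13.8%) with edgeR's quasi-likelihood test at a Benjamini-Hochberg adjusted p under 0.05, and 9 were not called. Over all 13949 tested genes 56.3% were called, 27.9% lower and 28.4% higher. The median log2 fold change of the 29 genes was -0.28, against 0.03 for all tested genes. The groups did not overlap at 22 of the 29 genes (75.9%), against 65% of all tested genes. Of these 18 were lower and 4 higher in GlnIND cells, against 31.3% and 33.7% of all tested genes. Past 2-fold, 4 fell and 2 rose, against 5.26% and 9.84% of all tested genes. Without the first parental library 18 of the cholesterol genes fell and 4 rose, and of 14232 tested genes 4679 fell and 4601 rose. Scaling by library totals alone moved the median of all genes to 0.18 and that of the cholesterol genes to -0.13. Of the cholesterol genes 12 then fell and 4 rose, and of all 13949 tested genes 2810 fell and 5356 rose.

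**Figure D1:**
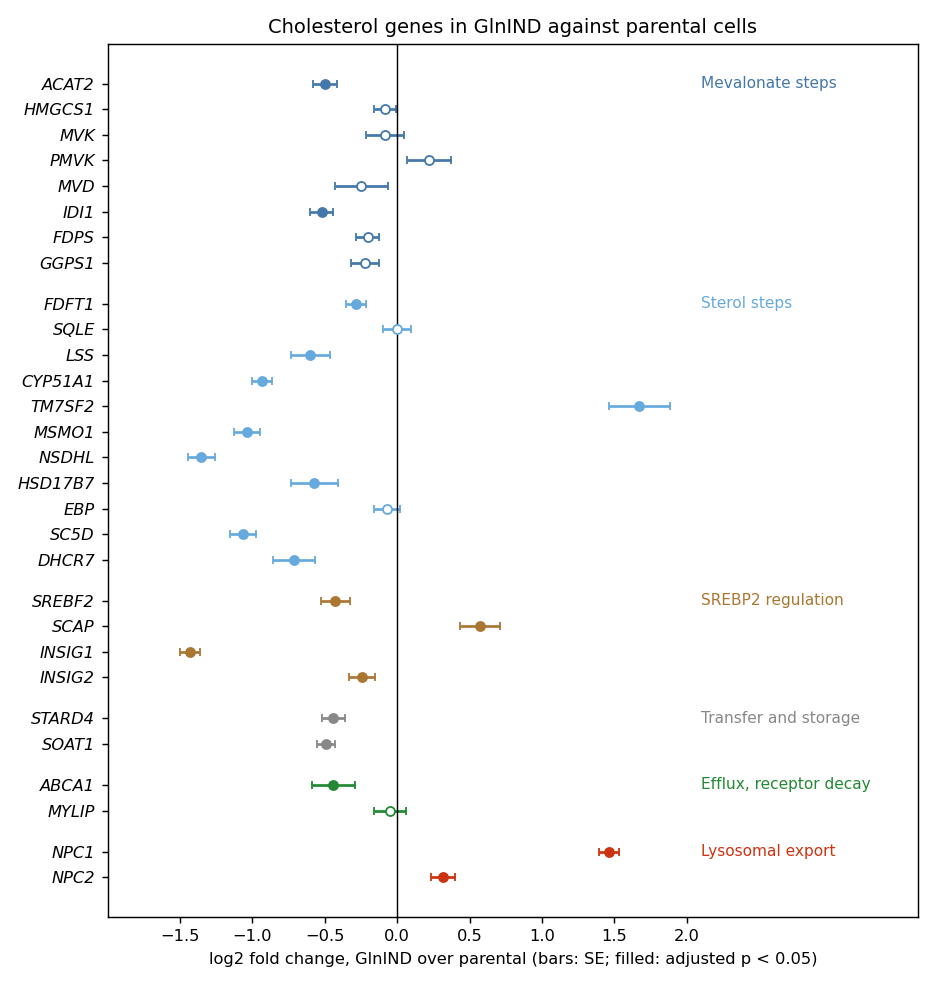
Log2 fold change of the 29 tested genes, GlnIND over parental (x axis), with SE bars and filled points for an adjusted p under 0.05. Of the sterol steps 8 lie to the left of 0 and are filled, while TM7SF2 and NPC1 stand farthest to the right at 1.67 and 1.46.

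Synthesis divides into the sterol steps from squalene onwards and the mevalonate steps that supply them. Of 11 sterol-step enzymes 8 fell (72.7%) and 1 rose, with a median log2 fold change of -0.60. Of 8 mevalonate-step enzymes 2 fell (25%) and 0 rose, with a median of -0.21, and 27.9% of all tested genes fell. Whether these shares differ was not tested, since genes of a pathway are not replicates.

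At the entry to the pathway ACAT2, the cytosolic thiolase that joins acetyl-CoA units, was at 84.7, 74.5 and 80.9 CPM in parental libraries and at 57.6, 60.1 and 52.3 CPM in GlnIND libraries. The groups were apart, and ACAT2 fell by 0.50 in log2 units (SE 0.082, adjusted p = 0.00065 in edgeR). Its row overlaps TCP1 and SOD2 in RefSeq's gene positions, and the strand setting of the counting is not given in the sources used here, so reads of these genes may be shared. HMGCS1, the synthase of the next step, averaged 51.5 ± 2.40 CPM (parental) against 48.5 ± 1.54 CPM (GlnIND) (SD, n = 3 each), with overlapping groups (adjusted p = 0.355 in edgeR).

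The kinases and the decarboxylase that convert mevalonate were low and did not pass the test. MVK, the mevalonate kinase, was at 16.0 and 15.1 CPM on average, PMVK, the phosphomevalonate kinase, at 19.3 and 22.5 CPM, and MVD, the decarboxylase, at 14.1 and 11.9 CPM, parental first. At all 3 genes the first parental library was the lowest of the parental group. Without it MVD passed the test, with a log2 fold change of -0.46 (adjusted p = 0.000661 in edgeR), while MVK and PMVK did not.

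IDI1, which isomerises the isoprene unit, fell from 91.2 ± 8.02 to 63.5 ± 2.68 CPM (SD, n = 3 each), by 0.52 in log2 units (SE 0.081, adjusted p = 0.000458 in edgeR). FDPS, the farnesyl diphosphate synthase at the branch between sterols and prenylation, was at 73.1, 85.7 and 82.9 CPM in parental libraries and at 72.5, 69.8 and 67.7 CPM in GlnIND libraries. Its groups lay side by side without overlap, and its adjusted p of 0.0523 in edgeR missed the threshold. GGPS1, which makes the longer geranylgeranyl group for prenylation, had a log2 fold change of -0.22 (adjusted p = 0.0719 in edgeR). FDPS passed without the first parental library (adjusted p = 5.68e-05 in edgeR) and GGPS1 without the third (0.0239). FDPS also passed with RLE factors (0.0364) and in DESeq2 (0.0353). FDPS did not pass with upper-quartile factors (log2 fold change -0.11, adjusted p = 0.267 in edgeR), library totals alone (-0.05, 0.625) or the replicate block (0.101). With library totals alone GGPS1 stood at -0.07 and was not called (adjusted p = 0.554 in edgeR). The GGPS1 row overlaps ARID4B, which had 10529 counts beside 3964 for GGPS1 and a log2 fold change of -0.51, and the MVK row overlaps MMAB, with 2209 counts beside 1993 and a log2 fold change of -0.44, so reads may be shared there too.

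Among the sterol steps FDFT1, the squalene synthase that commits farnesyl units to sterols, fell from 91.6 ± 5.09 to 75.2 ± 2.22 CPM (SD, n = 3 each), by 0.28 in log2 units (SE 0.070, adjusted p = 0.00638 in edgeR). With library totals alone FDFT1 stood at -0.13 and was not called (adjusted p = 0.141). SQLE, the squalene epoxidase, was at 32.7, 33.2 and 28.9 CPM in parental libraries and at 29.5, 33.6 and 31.6 CPM in GlnIND libraries, with overlapping groups (adjusted p = 0.999 in edgeR). LSS, which closes the rings to lanosterol, fell by 0.60 in log2 units (SE 0.137, adjusted p = 0.0043 in edgeR). The parental libraries of LSS were unequal, at 39.5, 55.4 and 57.7 CPM, and all lay above the GlnIND libraries at 31.1 to 36.1 CPM.

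All 4 enzymes listed for the removal of methyl groups from lanosterol fell, where 27.9% of all tested genes fell. CYP51A1, the demethylase that acts first on lanosterol, was at 114, 103 and 113 CPM in parental libraries and at 57.0, 57.3 and 58.7 CPM in GlnIND libraries. It was 1.91-fold lower (log2 fold change -0.94, SE 0.070, adjusted p = 4.71e-06 in edgeR). MSMO1, NSDHL and HSD17B7 encode the oxidase, dehydrogenase and reductase of the demethylation complex that acts next, and all 3 fell.

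MSMO1 was at 60.6, 61.4 and 66.02 CPM in parental libraries and at 32.0, 27.5 and 32.1 CPM in GlnIND libraries, 2.05-fold lower (adjusted p = 1.07e-05 in edgeR). NSDHL was at 33.0, 34.6 and 32.5 CPM and then at 13.7, 13.4 and 12.1 CPM, 2.55-fold lower (log2 fold change -1.35, SE 0.095, adjusted p = 3.22e-06 in edgeR). HSD17B7 fell from 9.69 ± 0.533 to 6.49 ± 1.33 CPM (SD, n = 3 each), by 0.57 in log2 units (adjusted p = 0.0134 in edgeR). The HSD17B7 call was lost without GlnIND replicate 1 (adjusted p = 0.0532) or replicate 2 (0.0528), and with library totals alone (0.0555).

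TM7SF2, a reductase that acts on the sterol ring after CYP51A1, moved the other way. It was at 1.93, 3.37 and 3.12 CPM in parental libraries and at 8.79, 7.78 and 10.2 CPM in GlnIND libraries, 3.19-fold higher (SE 0.213 in log2 units, adjusted p = 0.000128 in edgeR). The counts behind this were 158 in all parental and 648 in all GlnIND libraries.

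Of the closing steps, EBP, the sterol isomerase, was at 28.5 ± 0.928 and 27.2 ± 1.93 CPM (SD, n = 3 each) and was not called (adjusted p = 0.533 in edgeR). SC5D, a sterol desaturase, was at 68.8, 60.9 and 56.7 CPM in parental libraries and at 29.5, 29.7 and 30.01 CPM in GlnIND libraries, 2.09-fold lower (adjusted p = 1e-05 in edgeR). DHCR7, the last reductase of the pathway, was at 47.4, 70.9 and 71.4 CPM in parental libraries and at 37.4, 37.6 and 40.7 CPM in GlnIND libraries. It fell by 0.71 in log2 units (SE 0.144, adjusted p = 0.00212 in edgeR), and its first parental library lay nearest to the GlnIND group.

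**Figure D2:**
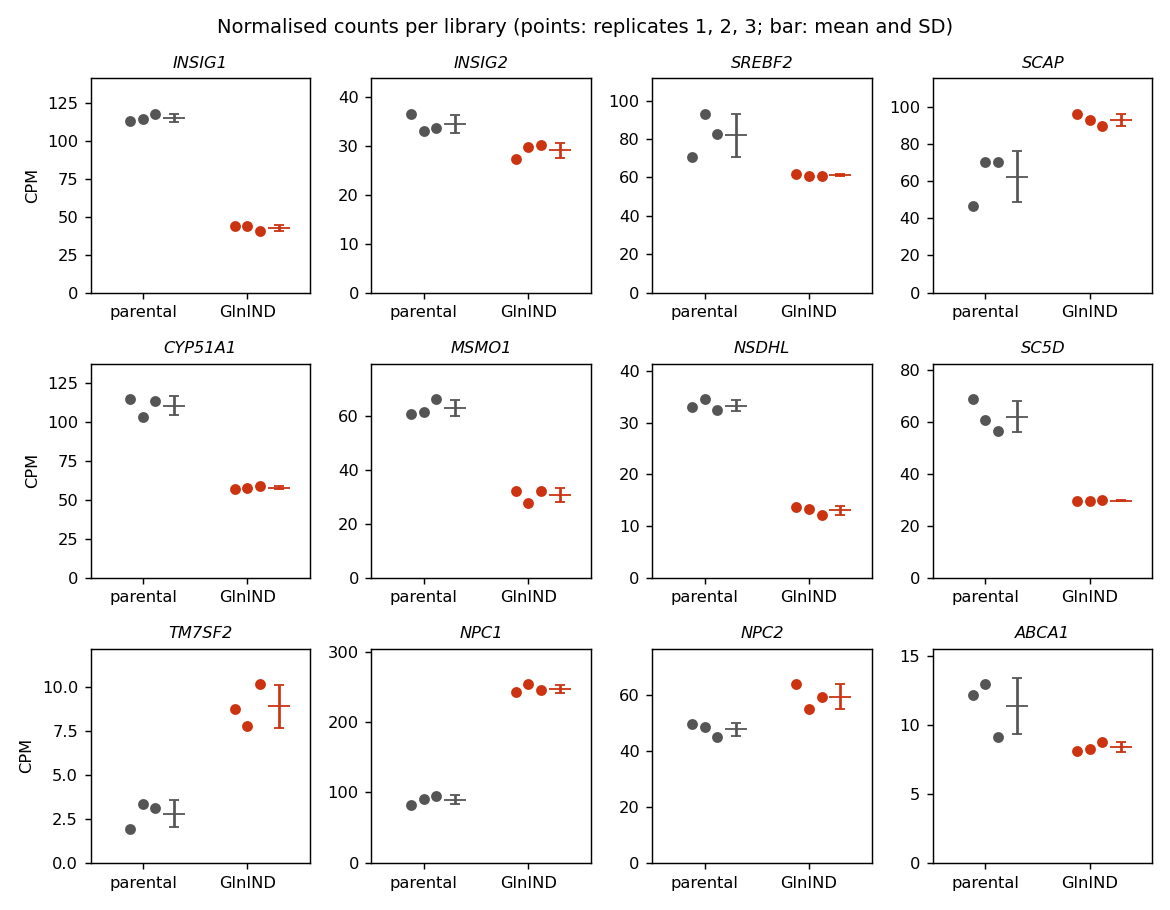
CPM (y axis, from 0) of 12 genes in each of the 6 libraries, with points for replicates 1, 2 and 3 and a bar for mean and SD. INSIG1, CYP51A1, MSMO1, NSDHL and SC5D separate the groups widely, while SREBF2 and SCAP have parental libraries spread from 70.5 to 93.0 and from 46.7 to 70.4 CPM.

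All 4 regulators were called, 3 of them lower, where 56.3% of all tested genes were called and 27.9% were lower. INSIG1, an anchor of SCAP and itself a target of SREBP2, was at 113, 115 and 118 CPM in parental libraries and at 44.0, 43.8 and 40.5 CPM in GlnIND libraries. This was a 2.69-fold difference (SE 0.069 in log2 units, adjusted p = 3.42e-07 in edgeR). INSIG2, the related anchor that does not depend on SREBP2 in the same way, was at 36.5, 33.0 and 33.7 CPM and then at 27.2, 29.8 and 30.1 CPM, a log2 fold change of -0.24 (adjusted p = 0.0381 in edgeR). The CPM ratio of INSIG1 to INSIG2 was 3.10, 3.48 and 3.50 in parental libraries and 1.62, 1.47 and 1.35 in GlnIND libraries. The INSIG2 call was lost without any 1 of the 3 GlnIND libraries, with adjusted p-values of 0.129, 0.0754 and 0.065, and INSIG2 stood at -0.09 with library totals alone (0.397).

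SREBF2 was at 70.5, 93.0 and 82.7 CPM in parental libraries and at 61.7, 60.9 and 60.6 CPM in GlnIND libraries. It fell by 0.43 in log2 units (SE 0.098, adjusted p = 0.0044 in edgeR). SCAP rose from 46.7, 70.4 and 70.3 CPM to 96.1, 93.0 and 89.8 CPM, 1.49-fold (SE 0.139 in log2 units, adjusted p = 0.00579 in edgeR). For both genes the first parental library was the lowest of all parental libraries, and the groups stayed apart.

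The transcripts of STARD4 and SOAT1 were lower. STARD4, a soluble carrier between membranes, fell from 72.2 ± 3.99 to 53.2 ± 3.53 CPM (SD, n = 3 each), by 0.44 in log2 units (adjusted p = 0.00116 in edgeR). SOAT1, which esterifies cholesterol for storage in droplets, was at 197, 208 and 201 CPM in parental libraries and at 142, 139 and 150 CPM in GlnIND libraries, 1.41-fold lower (SE 0.061 in log2 units, adjusted p = 0.000114 in edgeR).

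Of the tested export genes the lysosomal NPC1 and NPC2 were called higher and ABCA1 of the plasma membrane lower. Only NPC1 among them kept its call under all 19 alternatives. NPC1, the membrane protein that passes cholesterol out of the lysosome, was at 82.7, 90.6 and 95.3 CPM in parental libraries and at 243, 253 and 245 CPM in GlnIND libraries. It was 2.76-fold higher (log2 fold change 1.46, SE 0.070, adjusted p = 3.28e-07 in edgeR), and the lowest GlnIND library lay far above the highest parental library. Its row overlaps RMC1, which had 3877 counts in all libraries beside 22961 for NPC1 and a log2 fold change of 0.17 (adjusted p = 0.137 in edgeR).

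NPC2, the soluble partner that hands cholesterol to NPC1, was at 49.4, 48.6 and 44.8 CPM in parental libraries and at 63.7, 55.0 and 59.3 CPM in GlnIND libraries. It rose by 0.32 in log2 units (SE 0.084, adjusted p = 0.00919 in edgeR), and the call was lost without GlnIND replicate 1 (adjusted p = 0.0576).

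ABCA1, which exports cholesterol to apolipoproteins, was at 12.2, 12.9 and 9.10 CPM in parental libraries and at 8.12, 8.24 and 8.79 CPM in GlnIND libraries, a log2 fold change of -0.44 (SE 0.150, adjusted p = 0.03 in edgeR). The groups were separated by little, between 8.79 and 9.10 CPM. The call was lost without parental replicate 2 (adjusted p = 0.0978) or GlnIND replicate 1, 2 or 3 (0.0873, 0.0855 and 0.0598), and with library totals alone (0.126). ABCG1, which exports to lipoprotein particles, had 4 counts in the parental and 0 in the GlnIND libraries, under the floor in each library, and was not tested. MYLIP, the LXR-induced ubiquitin ligase that marks lipoprotein receptors for decay, averaged 23.2 ± 1.73 CPM in the parental group against 22.4 ± 2.42 CPM (SD, n = 3 each), and the groups overlapped (adjusted p = 0.735 in edgeR).

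Set side by side, the summed CPM of the 19 synthesis enzymes was 910, 933 and 955 in parental libraries and 674, 668 and 666 in GlnIND libraries. The sum of ABCA1, ABCG1, NPC1 and NPC2 was 144, 152 and 149 in parental libraries and 314, 317 and 313 in GlnIND libraries, most of it NPC1. Of the synthesis enzymes 10 fell (52.6%) and 1 rose, against 27.9% lower and 28.4% higher among all tested genes. Of the 3 tested export genes 2 rose and 1 fell, so the higher sum came from NPC1 and NPC2 and not from ABCA1. The calls of NPC2 and ABCA1 were both lost without GlnIND replicate 1. The mean log2(CPM + 0.5) of the synthesis enzymes less that of ABCA1, NPC1 and NPC2 was -0.12, -0.04 and 0.15 in parental and -0.81, -0.78 and -0.81 in GlnIND libraries.

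**Figure D3:**
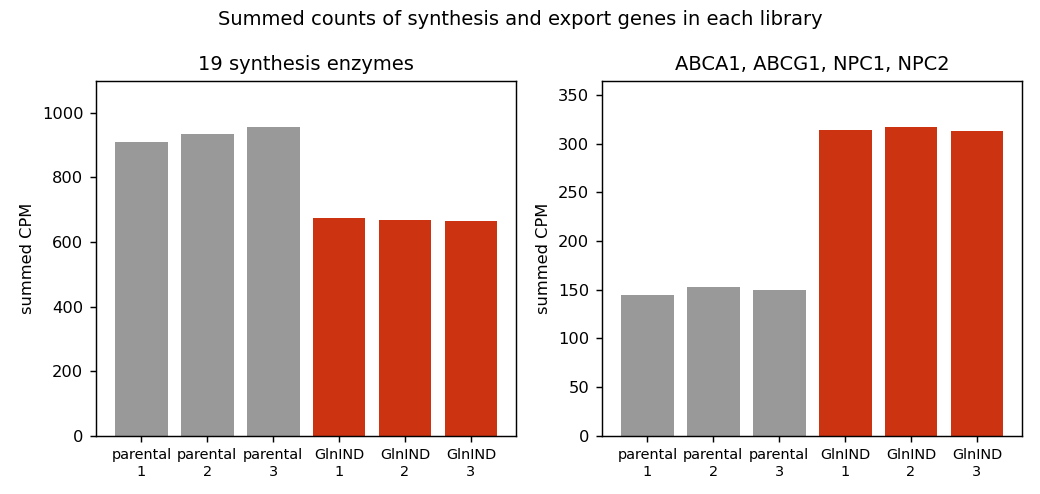
Summed CPM (y axis, from 0) of the 19 synthesis enzymes (left) and of 4 export genes (right) in each library. Synthesis sums lie at 910 to 955 in parental and 666 to 674 in GlnIND libraries, and export sums at 144 to 152 and 313 to 317.

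Each gene can also be read against its chromosomal surroundings, given here as the median log2 fold change of its 40 nearest tested genes in RefSeq's gene order (GRCh38.p14). That median was -0.07 around NPC1, 0.24 around INSIG1 and 0.09 around SREBF2. With the neighbours' median removed, NPC1 stood at 1.53 and INSIG1 at -1.67. Around SC5D the median was -0.87, and SC5D then stood at -0.19 and was not called (adjusted p = 0.102 in edgeR). NSDHL, with neighbours at -0.82, stood at -0.53, and CYP51A1, with neighbours at -0.56, stood at -0.37, and both stayed called. TM7SF2 has neighbours at 0.67 and stood at 1.01.

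The genes around DHCR7 and EBP shifted up, by 0.58 and 0.52, while DHCR7 fell and EBP was not called. With that shift removed DHCR7 stood at -1.29 and EBP at -0.59, the latter now called (adjusted p = 0.000586 in edgeR). HMGCS1, SQLE and FDPS were also called lower then, at -0.35, -0.28 and -0.21. With 10 neighbours in place of 40, FDPS was not called (-0.17, adjusted p = 0.107) and SC5D stayed called (-0.30, 0.0187). SQLE was called lower with 10 neighbours as well, at -0.95. With the shift of 40 neighbours removed SCAP stood at 0.28 (adjusted p = 0.127), NPC2 at 0.10 (0.365) and ABCA1 at 0.03 (0.881), none of them called. In all 18 of the 29 genes were lower with 40 neighbours and 2 higher, NPC1 and TM7SF2. Of all 13949 tested genes 3487 were lower and 3327 higher in that setting. The removed shift was treated as known, so these p-values leave out its own error, and its part in the results was not tested.

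**Figure D4:**
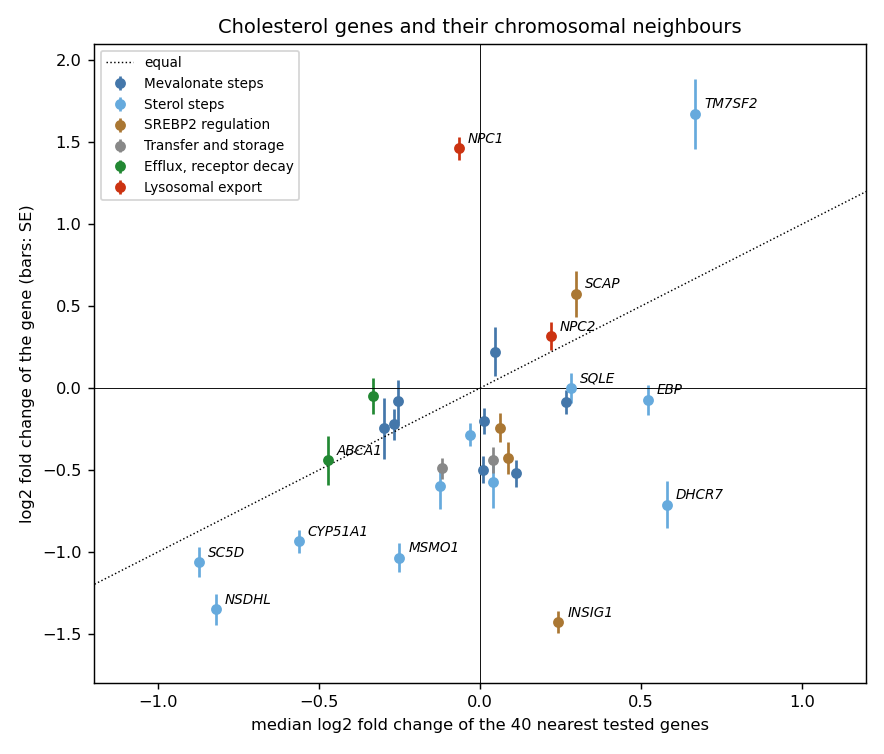
Log2 fold change of each of the 29 tested genes (y axis, SE bars) against the median of its 40 nearest tested genes (x axis), with a dotted line where both are equal. NPC1 and INSIG1 lie far from the line, at 1.46 and -1.43, while SC5D and ABCA1 lie near it.

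SREBP2 binds sterol regulatory elements and works with the factor NF-Y, which binds CCAAT boxes. The 250 bases before the gene start, taken from RefSeq (GRCh38.p14), were available for 26 of the 30 genes, some with several starts. They were searched on both strands for TCACNCCAC (a core of the sterol element), CACGTG (an E-box) and CCAAT, motifs chosen after the expression values were known. The sequences shown, 5′ to 3′ with matches in capitals, are those of SREBF2, of INSIG1, MSMO1 and NSDHL, which fell more than 2-fold, and of NPC1, which rose.
SREBF2 (chr22:41832855-41833104, plus strand): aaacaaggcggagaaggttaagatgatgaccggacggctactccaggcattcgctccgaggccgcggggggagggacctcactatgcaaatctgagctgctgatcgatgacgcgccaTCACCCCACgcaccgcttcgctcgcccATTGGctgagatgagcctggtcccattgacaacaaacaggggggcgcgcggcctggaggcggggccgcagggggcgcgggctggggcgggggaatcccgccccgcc
INSIG1 (chr7:155297628-155297877, plus strand): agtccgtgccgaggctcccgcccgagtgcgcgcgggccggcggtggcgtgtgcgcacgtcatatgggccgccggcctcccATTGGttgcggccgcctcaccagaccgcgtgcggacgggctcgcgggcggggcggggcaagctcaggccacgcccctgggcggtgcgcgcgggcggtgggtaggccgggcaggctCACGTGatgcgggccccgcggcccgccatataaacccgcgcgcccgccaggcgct
MSMO1 (chr4:165327419-165327668, plus strand): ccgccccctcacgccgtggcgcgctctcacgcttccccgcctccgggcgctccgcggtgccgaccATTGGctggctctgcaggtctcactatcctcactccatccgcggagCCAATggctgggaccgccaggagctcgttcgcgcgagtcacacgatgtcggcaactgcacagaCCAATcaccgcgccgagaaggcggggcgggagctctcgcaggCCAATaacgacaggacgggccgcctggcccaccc
NSDHL (chrX:152830813-152831062, plus strand): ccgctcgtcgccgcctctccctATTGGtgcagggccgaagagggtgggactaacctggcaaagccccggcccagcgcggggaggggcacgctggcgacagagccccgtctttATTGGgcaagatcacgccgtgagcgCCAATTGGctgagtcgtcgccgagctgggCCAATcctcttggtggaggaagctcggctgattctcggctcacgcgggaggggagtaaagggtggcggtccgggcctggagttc
NPC1 (chr18:23586507-23586756, minus strand): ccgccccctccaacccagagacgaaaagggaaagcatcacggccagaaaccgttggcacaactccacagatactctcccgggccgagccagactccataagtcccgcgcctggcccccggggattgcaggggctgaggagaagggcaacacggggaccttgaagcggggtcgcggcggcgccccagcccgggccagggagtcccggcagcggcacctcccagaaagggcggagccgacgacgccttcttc

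The sterol element core was found in 1 of 35 windows (2.86%), that of SREBF2, and for no other searched gene of the 26. Of 35116 RefSeq windows of the same length 0.883% held it. CCAAT was found in 22 of 35 windows of the cholesterol genes (62.9%), against 32.0% of all windows. MSMO1 holds 4 matches and NSDHL 5, of which a pair shares bases, while INSIG1 and SREBF2 hold 1 each and NPC1 0. Counting a gene when any of its windows matched, CCAAT was found for 11 of 14 genes that fell, 2 of 4 that rose and 7 of 8 that were not called. The 32.0% of all windows is not counted by gene. CACGTG was in 5 of 35 windows (14.3%), those of the 4 genes INSIG1, SC5D, SCAP and ABCA1, against 6.34% of all windows. These are matches of letters and not binding sites.

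Genes around this pathway were read from lists outside the 30, beside the 56.3% of all tested genes that were called, 28.4% higher and 27.9% lower. Of 5 further lipoprotein receptors 3 rose and 2 fell. LRP1, a large receptor that takes up remnant lipoproteins among other ligands, rose from 5.95, 4.63 and 6.50 CPM to 30.2, 29.5 and 30.5 CPM, 5.26-fold (SE 0.130 in log2 units, adjusted p = 7.2e-07 in edgeR). SCARB1, the receptor for high-density lipoprotein, fell from 58.6, 75.3 and 75.1 CPM to 26.0, 21.8 and 21.6 CPM, 3.01-fold (SE 0.121 in log2 units, adjusted p = 5.3e-06 in edgeR). Their neighbours had medians of -0.38 and -0.42. LRP8 and SORT1 also rose, by 0.82 and 0.58 in log2 units, and VLDLR fell by 0.60.

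In the list of LXR receptors, oxysterol enzymes and LXR-induced genes, 3 of 11 tested genes rose and 3 fell (27.3% each), near the 28.4% and 27.9% of all tested genes, with a median of 0.06. CYP27A1, which makes an oxysterol in mitochondria, rose from 1.27 ± 0.279 to 4.96 ± 0.787 CPM (SD, n = 3 each), 3.89-fold (adjusted p = 8.24e-05 in edgeR). CYP7B1, which hydroxylates oxysterols for their removal, had 8 counts in all parental libraries, at or under the floor in each, and 1033 in the GlnIND libraries, at 12.7, 14.2 and 15.7 CPM (adjusted p = 9.47e-07 in edgeR). The third gene that rose was the LXR receptor gene NR1H2, and those that fell were SREBF1, which encodes the SREBP of fatty acid synthesis, RXRA, the partner of LXR, and LPCAT3, a phospholipid enzyme.

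Of 14 tested sterol transfer proteins 4 rose (28.6%) and 2 fell (14.3%), against 28.4% and 27.9% of all tested genes, with a median of 0.07. GRAMD1B, which moves cholesterol from the plasma membrane to the endoplasmic reticulum, was at 0.397, 0.686 and 0.208 CPM in parental libraries and at 17.0, 18.1 and 16.0 CPM in GlnIND libraries, 39.7-fold higher (SE 0.247 in log2 units, adjusted p = 2.86e-07 in edgeR). GRAMD1B had 8, 12 and 4 parental counts, around the floor of 6, so its fold rests on few parental reads. Its log2 fold change stood at 4.96 without parental replicate 3 and at 5.76 without parental replicate 2. Its neighbours had a median of -0.93. OSBPL3, of the oxysterol-binding protein family, fell by 0.79 in log2 units (adjusted p = 2.43e-05 in edgeR), as did OSBPL8 by 0.38, while OSBPL10, STARD3 and GRAMD1A rose by 0.47, 0.45 and 0.34.

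Of 11 genes of SREBP processing and sterol sensing 3 rose and 3 fell (27.3% each), near the 28.4% and 27.9% of all tested genes, with a median of 0.02. RNF139, a ubiquitin ligase of the endoplasmic reticulum, rose 1.93-fold (adjusted p = 2.59e-05 in edgeR). Its neighbours had a median of 0.16. ERLIN2 rose by 0.23, and MBTPS2, a protease that releases SREBP, ERLIN1 and PGRMC1 fell by 0.52, 0.37 and 0.87 in log2 units.

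In the isoprenoid branch, which draws on farnesyl and geranylgeranyl diphosphate, 4 of 12 genes rose and 4 fell (33.3% each), against 28.4% and 27.9% of all tested genes, with a median of -0.06. FNTB, a subunit of farnesyltransferase, had 47 parental and 126 GlnIND counts, a log2 fold change of 1.06 (SE 0.320, adjusted p = 0.0175 in edgeR), and the call was lost without parental replicate 1, GlnIND replicate 1 or GlnIND replicate 3, and with the neighbours' shift removed (0.85, adjusted p = 0.0507). RCE1, a protease that trims prenylated proteins, rose by 0.64 in log2 units (adjusted p = 0.0316 in edgeR), and stood at 0.09 with the neighbours' shift removed. The RCE1 call was also lost without any 1 of the GlnIND libraries (adjusted p = 0.0889, 0.0733 and 0.105). FNTA and RABGGTA rose, and NUS1, PDSS1, COQ2 and ICMT fell.

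Of the genes of cholesteryl ester turnover LIPA, the lysosomal acid lipase upstream of NPC2, fell by 0.24 in log2 units (SE 0.068, adjusted p = 0.0118 in edgeR), and the call was lost without GlnIND replicate 2 (adjusted p = 0.0564), with library totals alone (0.283) or with the neighbours' shift removed (0.319). NCEH1, a further cholesteryl ester hydrolase, was at 442 ± 14.8 and 417 ± 10.3 CPM (SD, n = 3 each, adjusted p = 0.256 in edgeR). SOAT2, the second esterifying enzyme, had 0 counts in every library. LRP1, SCARB1, CYP27A1, CYP7B1, GRAMD1B, OSBPL3, RNF139, FNTB, RCE1 and LIPA are given because they had the largest called changes of their lists, so their values are those of selected extremes. The other genes of these lists were named after their values had been seen.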

How the data were processed

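RNA was measured in 3 libraries each of parental and GlnIND cells. The values are raw counts by gene symbol, deposited by the authors as a table for each library and a joint matrix. FastQC, STAR, featureCounts, DESeq and build hg19 are named in the submitters' processing notes. Versions, annotation, strand and multi-mapping settings are not given in the sources used here. The matrix holds the values of the tables with replicates 1 and 3 exchanged in both groups, and replicate numbers follow the tables.

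Counts were tested under R 4.3.3 with the quasi-likelihood functions of edgeR 4.0.16 (glmQLFTest after glmQLFit, two-sided, TMM factors, filterByExpr with a minimum count of 10 and a minimum total of 15, group alone). Benjamini-Hochberg adjustment ran over all 13949 tested genes, and calls used an adjusted p under 0.05. SE came from the F statistic. The test was checked on simulated data. A permutation of 3 libraries against 3 cannot go below p = 0.1. The genes and lists were chosen with earlier results of these data known. Named genes were all 30, and from each further list the 2 called genes with the largest change and at least 1 CPM in a group. Alternatives were RLE and upper-quartile factors, library totals, filters, each library left out, the replicate block, DESeq2 1.42.0, limma-voom (limma 3.58.1), stricter thresholds, the matrix, and removal of the shift of 40 neighbours (10 neighbours, added after seeing the data). Some genes of the pathway are not reported here. Positions were matched for 13776 of the tested genes.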

Additional observations from a re-analysis of the deposited data

How the results depend on the processing

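Over the alternatives with an adjusted p threshold of 0.05 and a test against 0, the number of cholesterol genes that fell stayed between 12 and 18, and the number of synthesis enzymes that fell between 8 and 13. Over all genes 2810 to 4679 fell in these settings, of 12953 to 19982 tested. Leaving out single libraries gave 13 to 18 cholesterol genes lower and 3 or 4 higher, and 9 to 12 synthesis enzymes lower. Of 14145 to 14259 tested genes 3337 to 4679 were then lower and 3151 to 4601 higher. INSIG1, NPC1, NSDHL and TM7SF2 were called in the same direction under all 19 alternatives, 1 of which, the deposited matrix, holds the same counts and could not differ. In a test against a log2 change of at least 1 (glmTreat), 1006 of 13949 genes passed, 350 lower and 656 higher. Among these were 2 cholesterol genes lower and 2 higher, with 1 synthesis enzyme lower, and 1 export gene higher and 0 lower. With the 40-neighbour shift removed 2 cholesterol genes rose, and 1 export gene was higher and 0 lower, where 3327 of all 13949 tested genes were higher. The number of export genes lower (ABCA1) was 0 with upper-quartile factors, library totals, the replicate block and an adjusted p under 0.01, and 0 to 1 when leaving out single libraries. The number of export genes higher was then 1 to 2. Over all genes, lower calls made up 49.5% under TMM, 40.3% under upper-quartile scaling and 34.4% under library totals.

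With upper-quartile factors and library totals the log2 fold changes of genes that were not called turned positive, at 0.092 and 0.15 for SQLE, 0.0061 and 0.068 for HMGCS1, 0.020 and 0.082 for EBP, 0.0092 and 0.070 for MVK, and 0.043 and 0.11 for MYLIP. SQLE, at 0 within its error, was also positive with a CPM of at least 1 in 3 libraries (0.00062), with the replicate block (0.00014) and with limma-voom (0.0019). Leaving out single libraries, SQLE ranged from -0.084 to 0.036 and MYLIP from -0.14 to 0.013. With the shift of 40 neighbours removed GGPS1 (0.047), MVD (0.053), MVK (0.17), MYLIP (0.28) and ABCA1 (0.032) turned positive, and with 10 neighbours MVD (0.22), MVK (0.15) and MYLIP (0.36). MYLIP was called higher with 10 neighbours (adjusted p = 0.0226 in edgeR). The cause was not tested.

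Same-numbered libraries did not deviate together (r = -0.086, 0.025 and -0.097 across genes). The labels do not say whether they were grown or prepared together. These values cannot decide it, since deviations of libraries from their group mean depend on each other. With the replicate block 14 cholesterol genes fell and 4 rose, 10 synthesis enzymes fell, and ABCA1 (adjusted p = 0.0543) and INSIG2 (0.0882) were not called. Of all 13949 tested genes 3584 fell and 3719 rose with that block. Depth limits ABCG1, which was under the floor of 6 counts in each library.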
